A study of Mus musculus with 8 samples.

Results

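The immediate early genes examined here are Fos, Fosb, Jun, Junb, Jund, Egr1, Egr2, Ier2, Btg2 and Zfp36. They were chosen by symbol, and all 10 were found among the 24539 genes of the count table. Their mRNA was read by RNA sequencing of sorted nephron progenitors, the mesenchymal kidney cells from which nephrons form, taken from mouse embryos at E18.5 and made into 8 libraries. All embryos carried Six2GFPcre, a transgene that makes GFP and Cre recombinase in these cells, so the Cre was present in the controls too. KO-labelled embryos were Smo c/c, with 2 conditional alleles of the Hedgehog signal transducer Smo. Het-labelled embryos were Smo c/+, where 1 allele is conditional and the other is not. WT-labelled embryos were Smo +/+. SmoM2-labelled embryos were Smo +/+ and carried Rosa26 SmoM2/+, an allele that makes an active form of Smo wherever Cre acts. Each group had 2 libraries. The labels do not say how many embryos went into a library or when libraries were made, so p-values measure the spread between these libraries only.

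Immediate early genes are transcribed soon after a cell receives a signal, without the need for new proteins. Growth factors act through MAP kinases on the serum response factor SRF and its ternary complex partners at CArG boxes, and calcium and cAMP act on CREB at cyclic AMP response elements (CREs). The mRNAs are short-lived, and enzymatic dissociation of a tissue and cell sorting are known to raise them. Fos and Jun proteins pair to form the transcription factor AP-1, Egr proteins are zinc finger factors, Btg2 restrains proliferation, and Zfp36 binds AU-rich mRNAs and speeds their decay.

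The libraries held between 4422305 and 10305398 counts. Smo itself goes against a label. Its level is given in CPM (counts scaled to a common library total). The KO-labelled libraries had 13.1 and 11.1 CPM, the Het-labelled 14.4 and 23.9, the WT-labelled 363 and 374, and the SmoM2-labelled 604 and 628. The Het-labelled libraries thus lay near the KO-labelled ones, and groups are named by their labels throughout. By Xist and Y-linked counts the KO-labelled pair was male and the Het-labelled pair female, while each of the other groups held 1 library of each sex. Sorted identity was checked on markers. The 10 progenitor markers, Six2 and Cited1 among them, summed to 6186 and 5823 CPM in the Het-labelled, 5238 and 4679 in the KO-labelled and between 4155 and 4459 CPM in the other libraries, so that the sides did not overlap. KO- and Het-labelled libraries, where Smo was low, were set against the other libraries (edgeR adjusted p under 0.05). Of these markers 7 were called higher where Smo was low, Cited1 by a log2 difference of 1.67, and 1 was called lower. Of all tested genes 43.5% were called in that comparison, and 22.0% were called higher. In contrast, 6 endothelial markers summed to at most 3.39 CPM. Erythroid markers, 6 genes, summed to between 17.6 and 61.3 CPM where Smo was low (KO- and Het-labelled) and to between 4.16 and 9.60 CPM elsewhere.

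The sequences just upstream of 8 of these genes were searched for letter matches to the response elements named above. Those of 4 genes are printed. They are the first 250 bases before the RefSeq transcript start on GRCm38.p6, 5′ to 3′ on the gene's strand, for the archetype Fos and for Fosb, Btg2 and Egr2, which had the largest changes of Het- against WT-labelled libraries. Capitals mark CRE (TGACGTCA), CRE half-sites (TGACG) and the CArG box, searched on both strands, and a CRE always overlaps half-sites.
Fos, chr12:85473640-85473889, plus strand: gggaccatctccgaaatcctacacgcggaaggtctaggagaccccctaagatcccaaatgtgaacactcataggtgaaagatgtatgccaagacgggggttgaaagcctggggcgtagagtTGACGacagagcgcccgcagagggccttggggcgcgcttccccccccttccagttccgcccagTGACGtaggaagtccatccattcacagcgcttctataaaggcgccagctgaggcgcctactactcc
Fosb, chr7:19310046-19310295, minus strand: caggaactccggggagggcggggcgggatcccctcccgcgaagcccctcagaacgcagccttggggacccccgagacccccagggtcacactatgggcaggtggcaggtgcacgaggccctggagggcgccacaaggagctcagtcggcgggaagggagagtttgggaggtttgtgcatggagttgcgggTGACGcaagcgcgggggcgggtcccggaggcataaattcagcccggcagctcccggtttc
Btg2, chr1:134079156-134079405, minus strand: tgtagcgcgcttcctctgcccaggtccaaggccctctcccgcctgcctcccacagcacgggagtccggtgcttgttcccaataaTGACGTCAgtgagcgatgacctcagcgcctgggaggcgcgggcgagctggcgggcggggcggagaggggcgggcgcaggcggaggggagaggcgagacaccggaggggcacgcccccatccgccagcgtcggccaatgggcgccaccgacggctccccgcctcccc
Egr2, chr10:67537619-67537868, plus strand: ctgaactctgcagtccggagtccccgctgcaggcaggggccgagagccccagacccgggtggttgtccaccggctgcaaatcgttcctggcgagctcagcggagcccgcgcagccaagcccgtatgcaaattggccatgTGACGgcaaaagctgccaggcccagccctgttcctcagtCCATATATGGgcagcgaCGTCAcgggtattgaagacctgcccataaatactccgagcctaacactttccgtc
Fos had 2 CRE half-sites, whose first bases lay 129 and 66 bases before the start. Fosb had 1, at 60 bases. Btg2 had a full CRE at 166 bases. RefSeq lists 5 starts for Egr2, and the first of the 3 windows with the most matches is printed. It had half-sites at 111 and 55 bases and a CArG box at 72 bases. Among 32851 such windows of all genes, 17.8% held a CRE half-site, 1.55% a full CRE and 1.47% a CArG box. Egr1 and Ier2 were left out of the search, so 8 of the 10 genes were covered. Beyond the 4 printed, Junb had a CRE half-site at 106 bases and Zfp36 had a CArG box at 58 bases. Zfp36, Fosb and Btg2 each held an EGR site (GCGNGGGCG), as did 4.70% of all windows, and none of the 8 genes held an AP-1 site (TGANTCA), as did 6.75%. For Jun and Jund none of the motifs searched was present in the window. A match is a stretch of letters and not a measured binding site. Elements further upstream than 250 bases were not searched, so a window without a motif does not show that the gene lacks it.

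All 10 genes were abundant enough to be tested, with at least 253 counts in every library. In GENCODE vM21 (GRCm38), Fosb and Zfp36 lie on chromosome 7, Junb, Jund and Ier2 on chromosome 8, and Btg2, Jun, Egr2, Fos and Egr1 on chromosomes 1, 4, 10, 12 and 18. Per length, in the authors' RPKM (read counts scaled for gene length and depth), Egr1 was the highest in the WT-labelled libraries (358 ± 18.5 RPKM, SD, n = 2), which put it at rank 101 among the 13459 tested genes. Jund (251 ± 14.1 RPKM) and Ier2 (215 ± 2.82 RPKM) followed at ranks 157 and 185. Fos stood at 140 ± 4.08, Jun at 103 ± 12.8 and Junb at 91.1 ± 3.49 RPKM. Zfp36 (35.5 ± 0.621), Fosb (31.6 ± 4.43), Btg2 (16.1 ± 3.70) and Egr2 (8.31 ± 0.424 RPKM, rank 6631) were lower. The WT-labelled levels were therefore spread over a wide range, from among the most abundant transcripts of these cells to the middle of the tested genes. In the Het-labelled libraries Egr1 reached 868 ± 85.7 RPKM, rank 30, and Ier2 621 ± 30.0 RPKM (SD, n = 2), rank 49. The 10 genes together took 0.393% and 0.394% of all counts in the WT-labelled libraries and 0.414% and 0.583% in the SmoM2-labelled libraries. They took 0.588% and 0.787% in the KO-labelled and 0.992% and 0.990% in the Het-labelled libraries.

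In each of the 10 genes the group means fell in the same order, with the Het-labelled group highest, then KO-labelled, SmoM2-labelled and WT-labelled. This order was found in 5.52% of all tested genes. It is not the order of labelled Smo doses, nor that of the measured Smo level. Neighbours in the order were not always apart. Both Het-labelled libraries lay above both KO-labelled libraries in 9 genes, Egr2 being the exception, and in 27.7% of all tested genes. KO- and SmoM2-labelled libraries overlapped in Fos, Fosb, Jun, Jund, Egr1 and Egr2, and were apart in Junb, Ier2, Btg2 and Zfp36. The share of all tested genes apart between those 2 groups was not counted. SmoM2-labelled libraries lay above WT-labelled ones in 7 genes, and in 17.5% of all tested genes. They overlapped them in Jun, Junb and Jund. In a test over the 4 groups (edgeR quasi-likelihood, Benjamini-Hochberg adjusted over all tested genes, threshold 0.05) all 10 genes were called, with adjusted p between 7.39e-05 for Ier2 and 0.0239 for Jun, and 41.0% of all tested genes were called.

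**Figure D1:**
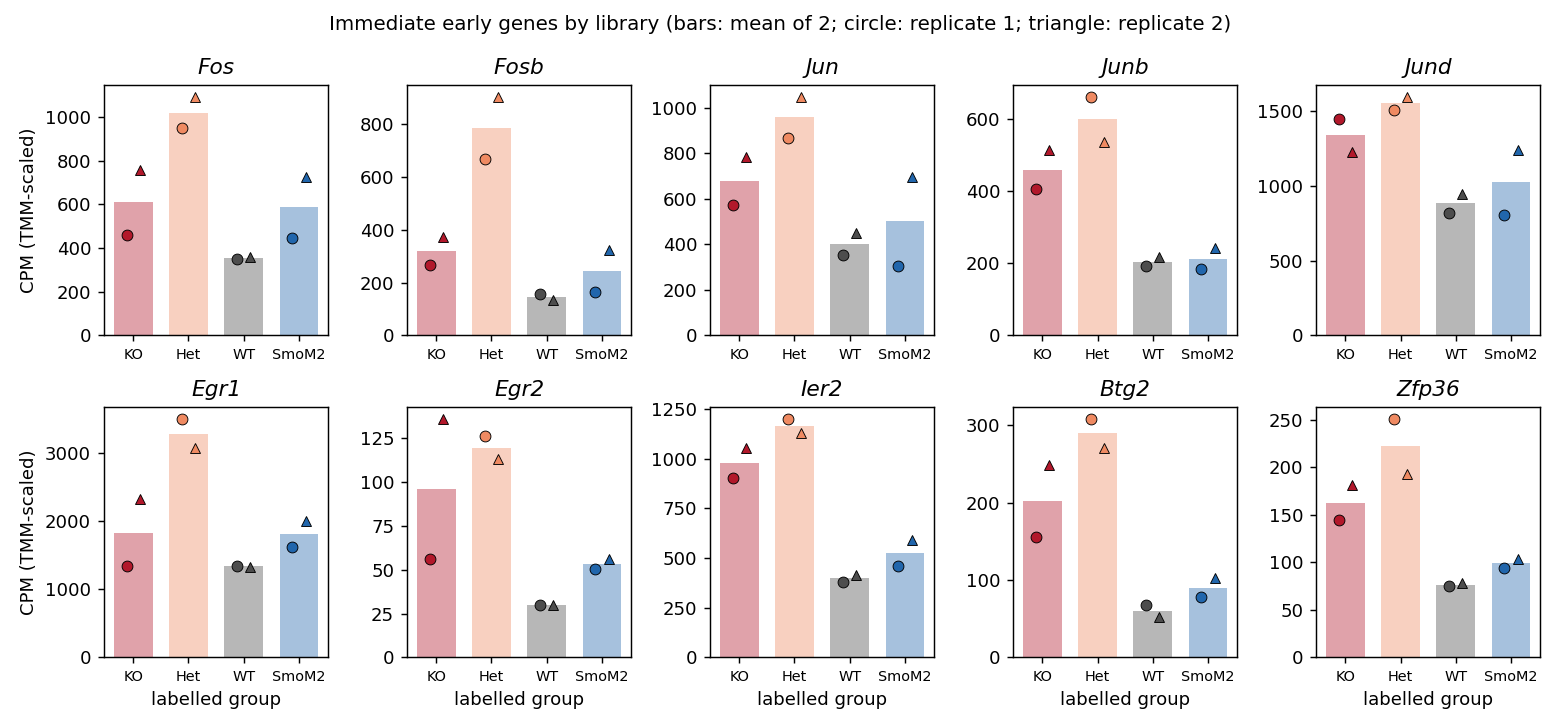
CPM of each immediate early gene in the 8 libraries by labelled group, with bars at the mean of 2 libraries, circles for replicate 1 and triangles for replicate 2. The Het-labelled bar is the highest and the WT-labelled bar the lowest in each of the 10 panels.

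Among the Fos members of AP-1, Fos was at 461 and 758 CPM in the KO-labelled, 948 and 1092 in the Het-labelled, 352 and 361 with the WT label and 447 and 725 CPM with the SmoM2 label. The Het-labelled libraries were the highest, the WT-labelled pair was the lowest, and the KO- and SmoM2-labelled pairs overlapped. Fosb was at 265 and 372 CPM in the KO-labelled, 668 and 902 in the Het-labelled, 155 and 135 with the WT label and 164 and 324 CPM with the SmoM2 label. Fosb thus had the widest span between groups, with 5.41-fold between the highest and the lowest mean, against 2.86-fold for Fos.

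Among the Jun members, Jun was at 575 and 782 CPM in the KO-labelled, 867 and 1048 in the Het-labelled, 355 and 452 with the WT label and 304 and 697 CPM with the SmoM2 label. The SmoM2-labelled pair differed 2.29-fold and enclosed the WT-labelled pair. Junb, whose product opposes Jun at many promoters, was at 406 and 514, 662 and 538, 192 and 217, and 184 and 242 CPM in the same order of groups. Every KO- and Het-labelled library lay above every WT- and SmoM2-labelled library. Jund, which is made in resting cells too and is the least inducible of the family, was at 1449 and 1225, 1506 and 1594, 818 and 947, and 802 and 1242 CPM. Its highest mean was 1.76-fold its lowest, the narrowest span of the 10 genes.

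Of the zinc finger factors, Egr1 was at 1341 and 2326 CPM in the KO-labelled, 3505 and 3075 in the Het-labelled, 1344 and 1335 with the WT label and 1616 and 2002 CPM with the SmoM2 label. KO-labelled replicate 1 was level with the WT-labelled pair, and replicate 2 was not. Egr2 was at 56.0 and 136, 126 and 113, 30.1 and 29.9, and 50.6 and 56.1 CPM. Here KO-labelled replicate 2 was the highest of all libraries, while replicate 1 stood at the SmoM2-labelled level.

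The other three genes parted the groups most cleanly. Ier2, a short nuclear protein of the serum response, was at 902 and 1057 CPM in the KO-labelled, 1201 and 1132 in the Het-labelled, 382 and 416 with the WT label and 462 and 593 CPM with the SmoM2 label. Btg2 was at 156 and 248, 308 and 271, 68.2 and 52.5, and 78.0 and 102 CPM. Zfp36 was at 145 and 181, 251 and 193, 74.7 and 77.9, and 94.4 and 104 CPM. In all of these the groups did not overlap at any step of the order. How many of all tested genes were parted in this way was not counted.

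KO- against WT-labelled libraries addresses what differs when both Smo alleles are conditional. Of the 10 genes 8 rose, while 23.0% of all tested genes were called in either direction and 11.6% were called higher. The exceptions were Jun (log2 change 0.75, SE 0.30, edgeR adjusted p 0.0937) and Egr1 (0.45, SE 0.21, adjusted p 0.146). The median log2 change over the 10 genes was 1.12, against 0.03 over all tested genes. Btg2 rose most, 3.34-fold (log2 1.74, SE 0.22, edgeR adjusted p 5.04e-04), followed by Egr2 at 3.21-fold and Ier2 at 2.45-fold (log2 1.29, SE 0.15, adjusted p 3.04e-04). Junb rose 2.25-fold, Fosb 2.19-fold and Zfp36 2.14-fold. Fos (1.71-fold, edgeR adjusted p 0.0391) and Jund (1.52-fold, adjusted p 0.0384) were called close to the threshold. Both KO-labelled libraries were above both WT-labelled ones in 9 of the 10 genes, as in 32.2% of all tested genes. The number called was 5 without KO-labelled replicate 2 and 5 without WT-labelled replicate 2. Fos was not called without KO-labelled replicate 2 or any single Het- or WT-labelled library, nor by DESeq2 (log2 0.75, adjusted p 0.126). Fosb was not called without KO-labelled replicate 2 or WT-labelled replicate 2, nor was Jund without any single KO-, Het- or WT-labelled library. With the whole Het-labelled group left out 6 genes were called, Fos (edgeR adjusted p 0.0590) and Jund (0.0694) no longer among them. Jun was called when either SmoM2-labelled library was left out, and Egr1 was called without KO-labelled replicate 1 (log2 0.79), while Egr1 stood at -0.01 without KO-labelled replicate 2. Egr2 rose by 0.89 without KO-labelled replicate 2 and by 2.18 without replicate 1.

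Het- against WT-labelled libraries addresses, by label, 1 conditional allele against none. The measured Smo goes against that reading, with a log2 change of -4.28, against -4.93 in KO- against WT-labelled libraries. All 10 genes rose, while 25.3% of all tested genes were called in either direction and 13.1% were called higher. The median log2 change was 1.54, against -0.02 over all tested genes. Fosb rose 5.41-fold (log2 2.44, SE 0.28, edgeR adjusted p 2.96e-04), Btg2 4.79-fold (2.26, SE 0.22, adjusted p 1.08e-04) and Egr2 3.99-fold (2.00, SE 0.30, adjusted p 0.00114). Junb, Ier2, Zfp36 and Fos rose between 2.86-fold and 2.93-fold, Egr1 2.46-fold and Jun 2.37-fold. Jund rose least, 1.76-fold (log2 0.81, SE 0.19, edgeR adjusted p 0.00968). In all 10 genes both Het-labelled libraries were above both WT-labelled ones, as in 32.8% of all tested genes. Jun was not called without Het-labelled replicate 2 or without WT-labelled replicate 1, and Jund was not called without Het-labelled replicate 2.

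SmoM2- against WT-labelled libraries addresses the active form of Smo. None of the 10 genes was called by edgeR or by DESeq2, and 0.223% of all tested genes were called. At an unadjusted p under 0.05, 6 of the 10 genes and 1036 of 13459 tested genes were counted. The log2 changes were all above 0, with a median of 0.42 against 0.00 over all tested genes. They ran from 0.06 for Junb (SE 0.17, edgeR adjusted p 0.982) to 0.83 for Egr2 (SE 0.29, adjusted p 0.463), with Fosb at 0.75 and Fos at 0.72. Both SmoM2-labelled libraries were above both WT-labelled ones in 7 genes, as in 17.5% of all tested genes. SmoM2-labelled replicate 2 was the higher of its pair in all 10 genes, by a median log2 difference of 0.39 against 0.00 over all tested genes. Without replicate 2 the median log2 change was 0.25, and Jun, Junb and Jund changed sign, to -0.40, -0.14 and -0.13. With all genes of at least 1 count tested, 5 of the 10 were called.

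KO- against Het-labelled libraries addresses, by label, 2 conditional alleles against 1. Smo itself was low in both groups and had a log2 change of -0.65 between them (edgeR adjusted p 0.0906). Fosb and Egr1 were lower in the KO-labelled libraries, 2 of 10 genes, while 9.43% of all tested genes were called in either direction and 5.10% were called lower. Fosb was 2.47-fold lower (log2 -1.30, SE 0.27, edgeR adjusted p 0.0178) and Egr1 1.79-fold lower (log2 -0.84, SE 0.21, adjusted p 0.0333). The other 8 genes had log2 changes between -0.74 for Fos (edgeR adjusted p 0.0734) and -0.21 for Jund (adjusted p 0.495). The median was -0.47, against 0.02 over all tested genes, and both KO-labelled libraries lay below both Het-labelled ones in 9 genes, as in 27.7% of all tested genes. No gene was called without KO-labelled replicate 1, without Het-labelled replicate 1, without Het-labelled replicate 2 or with sex as a covariate, and 5 were called without KO-labelled replicate 2. Sex and group cannot be told apart within these 4 libraries, and the covariate rests on the WT- and SmoM2-labelled groups. The summed level of immune markers also differed, at 48.9 CPM in each Het-labelled and 28.8 and 14.4 CPM in the KO-labelled libraries. Cd68 was lower in the KO-labelled libraries, while 4 of the 5 tested immune markers had log2 changes above 0. The part of these markers was not tested.

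**Figure D2:**
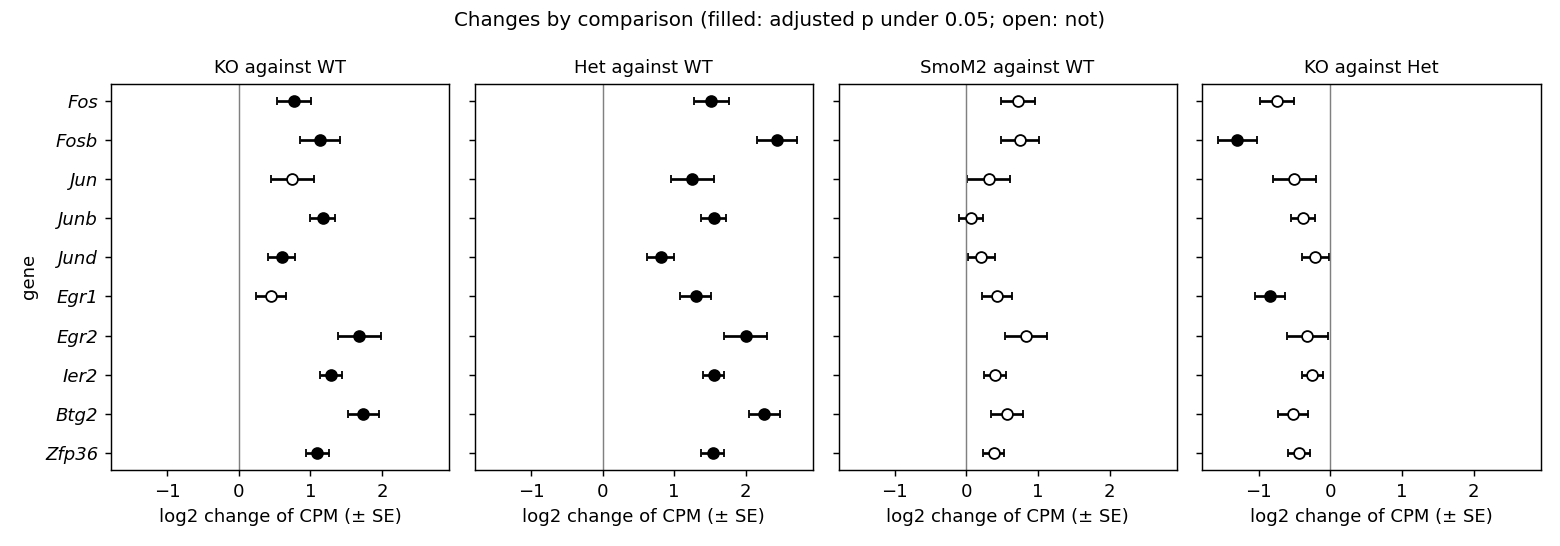
Log2 change with its SE for the 10 genes in 4 comparisons, filled where the edgeR adjusted p was under 0.05. All points against WT-labelled libraries lie to the right of 0 and all points of KO- against Het-labelled libraries lie to the left, while none is filled for SmoM2- against WT-labelled libraries.

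KO- and Het-labelled libraries were also set together against WT- and SmoM2-labelled libraries, which contrasts libraries with low and high Smo. All 10 genes rose on the low side, while 43.5% of all tested genes were called in either direction and 22.0% were called higher. The median log2 difference was 1.18, against 0.01 over all tested genes. The difference was 1.71 for Btg2 (SE 0.15, edgeR adjusted p 1.37e-05), 1.42 for Egr2, 1.41 for Fosb, 1.33 for Junb, 1.22 for Ier2 and 1.13 for Zfp36. It was 0.84 for Jun, 0.79 for Fos, 0.66 for Egr1 and 0.60 for Jund (SE 0.13, edgeR adjusted p 0.00371). All 4 low-side libraries lay above all 4 high-side libraries in 4 genes, Junb, Ier2, Btg2 and Zfp36, a pattern seen in 16.5% of all tested genes. When the Het-labelled group, whose Smo level goes against its label, was left out, 6 of the 10 genes were called, and Fos, Jun, Jund and Egr1 were not (edgeR adjusted p between 0.0624 and 0.452). The labels give no batch, so a batch that followed these sides and the sides themselves cannot be told apart. Library depth followed the sides too, lower on the low-Smo side, and its part was not tested.

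Replicates of the KO- and SmoM2-labelled groups differed by more in these genes than in tested genes overall. The median absolute log2 difference between replicates was 0.47 over the 10 genes for KO-labelled and 0.39 for SmoM2-labelled replicates, against 0.24 and 0.19 over all tested genes. Among the 3904 tested genes at least as abundant as Egr2, the least abundant of the 10, it was 0.16 and 0.14. In the Het-labelled pair it was 0.20 over the 10 genes, 0.16 over all tested genes and 0.10 among those 3904. In the WT-labelled pair the values were 0.15, 0.20 and 0.14. Replicate 2 was the higher library in 9 of 10 genes in the KO-labelled pair, with Jund as the exception, and in all 10 in the SmoM2-labelled pair. The median signed log2 difference, replicate 2 minus replicate 1, was 0.47 and 0.39 over the 10 genes. Over all tested genes it was -0.01 and 0.00. In the WT- and Het-labelled pairs replicate 2 was the higher in 6 and 4 genes. In the SmoM2-labelled pair all 10 genes, and in the KO-labelled pair all but Jund, thus differed in 1 direction between libraries of 1 genotype.

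**Figure D3:**
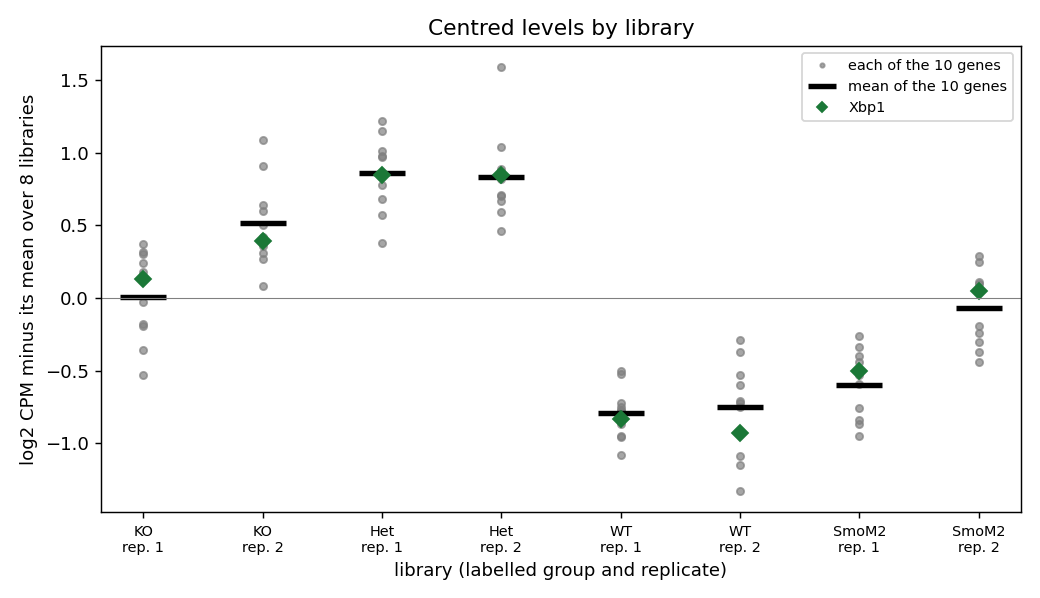
Log2 CPM of each of the 10 genes (grey), their mean (bar) and Xbp1 (green), each minus its own mean over the 8 libraries. The mean bar runs from -0.79 in WT-labelled replicate 1 to 0.86 in Het-labelled replicate 1, and the KO- and SmoM2-labelled pairs differ within themselves.

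The make-up of AP-1 was compared per length, as shares of the summed RPKM of 7 genes, the 5 above with Fosl1 and Fosl2. The sum was 608 and 639 RPKM with the WT label, 593 and 976 with the SmoM2 label, 1016 and 1224 in the KO-labelled and 1459 and 1566 RPKM in the Het-labelled libraries. Jund held 39.7% and 40.9% of it in WT-labelled and 37.7% and 35.3% in SmoM2-labelled libraries. In the Het-labelled libraries the share was 29.2% and 28.5%, against 42.0% and 30.0% in the KO-labelled libraries, which thus spanned both ends. Fosb held 9.87% and 12.3% in the Het-labelled pair, against 4.46% to 7.01% in the other 6 libraries. Junb held between 15.1% and 20.1% in KO- and Het-labelled and between 10.7% and 14.7% in WT- and SmoM2-labelled libraries, without overlap. Fos held between 18.4% and 28.8% and Jun between 12.9% and 17.9%, and in both the sides overlapped. Fosl1 and Fosl2 each held less than 1% in every library. The ratio of Fosb to Fos RPKM was 0.391 and 0.458 in the Het-labelled, 0.318 and 0.272 in the KO-labelled, and between 0.203 and 0.248 wherever Smo was high, so that the sides did not overlap. The ratio of Egr2 to Egr1 was between 0.0374 and 0.0607 on the low-Smo side and between 0.0232 and 0.0324 on the high-Smo side. These shares and ratios are descriptions of the libraries and were not tested.

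**Figure D4:**
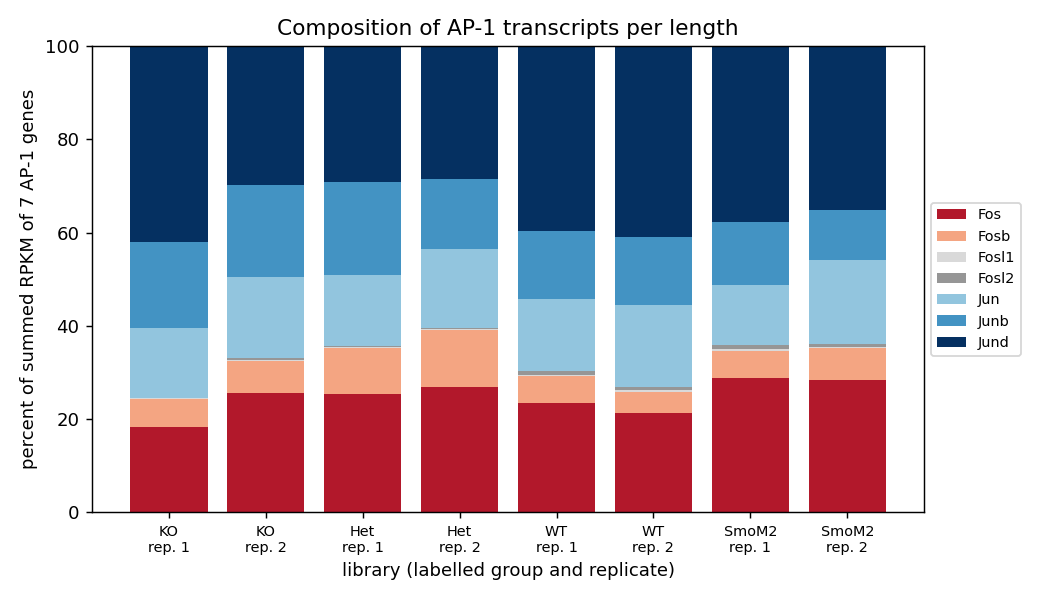
Percent of the summed RPKM of 7 AP-1 genes in each library, stacked by gene. The Fosb segment is the widest in the Het-labelled libraries (9.87% and 12.3%), and the Jund segment ranges from 28.5% to 42.0%.

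Other genes of the response were examined from lists of symbols. Of 34 other immediate early genes 33 were tested, and 16 rose and 3 fell on the low-Smo side, with a median log2 difference of 0.47 against 0.01 over all tested genes. Over all tested genes 43.5% were called between the sides, 2956 higher and 2894 lower. Egr3 rose most, from 6.24 and 5.77 CPM with the WT label and 8.99 and 9.12 with the SmoM2 label to 28.8 and 62.6 in the KO-labelled and 84.3 and 55.3 CPM in the Het-labelled libraries. Its log2 difference between the sides was 2.94 (SE 0.23, edgeR adjusted p 6.13e-06), against at most 1.71 in the 10 genes. Egr4 rose by 2.37, Dusp2, a nuclear MAP kinase phosphatase, by 1.92, and Cyr61, a secreted matrix protein, by 1.45. In KO- against Het-labelled libraries Gadd45g rose by 1.35 and Klf2 fell by 1.29, and no other gene of the list was called there.

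Of 10 other AP-1 genes and partners 9 were tested, and 3 were called between the sides, all lower on the low-Smo side, with 43.5% of all tested genes called. Fosl1 and Maff had differences of 0.58 and 0.06 and were not called. Fosl2 had a log2 difference of -0.92 (SE 0.20, edgeR adjusted p 0.00367), and its libraries stood at 12.4 and 26.5 CPM (KO-labelled), 20.8 and 14.4 (Het-labelled), 27.8 and 29.8 (WT-labelled) and 39.0 and 46.6 CPM (SmoM2-labelled). Batf and Atf2 had differences of -0.91 and -0.59. Batf was low, at most 4.27 CPM in any library.

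Of 21 upstream regulators, all tested, 6 rose and 6 fell on the low-Smo side (43.5% of all tested genes were called), with a median of -0.07. Map2k1, the kinase MEK1 that activates ERK, was at 111 and 109 CPM in the KO-labelled, 138 and 119 in the Het-labelled, 51.4 and 49.2 with the WT label and 50.1 and 44.1 CPM with the SmoM2 label, a log2 difference of 1.29 (SE 0.09, edgeR adjusted p 3.53e-06). Srf rose by 0.70. Elk4, a ternary complex factor that works with SRF, was at 12.9 ± 0.776, 22.9 ± 1.12, 44.9 ± 10.8 and 48.7 ± 0.156 CPM (SD, n = 2) from KO- to SmoM2-labelled groups, with a difference of -1.44. Rps6ka3, the ERK-activated kinase RSK2, had a difference of -0.76. Mkl1, an actin-regulated SRF coactivator, was lower in KO- than in Het-labelled libraries (log2 -0.61, SE 0.13, edgeR adjusted p 0.0210).

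Of 14 genes of feedback and mRNA decay, all tested, 6 rose and 2 fell on the low-Smo side (43.5% of all tested genes were called, 22.0% higher), with a median of 0.13. Dusp5, an ERK phosphatase, rose by 1.40 (SE 0.20, edgeR adjusted p 2.84e-04). It was at 46.2 and 94.2 CPM in the KO-labelled and 71.7 and 53.5 in the Het-labelled libraries, against at most 31.3 CPM in the others. Zfp36l2, a relative of Zfp36, rose by 0.70. Nab1, a corepressor of Egr factors, had a difference of -0.87 and Btg3, a relative of Btg2, of -0.84. In KO- against Het-labelled libraries Hnrnpd, which binds AU-rich mRNAs, rose by 0.88, and Khsrp, which promotes their decay, fell by 0.59.

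Heat shock genes, which dissociation is also known to raise, moved in both directions. Of 11 genes, all tested, 2 rose and 2 fell on the low-Smo side (43.5% of all tested genes were called), with a median of 0.01. Their summed level was between 5704 and 6129 CPM there and between 6582 and 8050 CPM on the high-Smo side. Hsp90ab1 alone made up most of these sums. It was at 3954 to 4215 CPM on the low-Smo side and 5154 to 6108 CPM on the high-Smo side. Hsph1 rose by 1.63 (SE 0.16, edgeR adjusted p 2.38e-05) and Dnajb1 by 0.48, while Hspb1 and Hsp90ab1 had differences of -0.96 and -0.43. Hsph1 was at 70.3 and 68.1 CPM in the KO-labelled, 116 and 119 in the Het-labelled, 25.8 and 28.7 with the WT label and 21.7 and 40.5 CPM with the SmoM2 label.

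The 6 genes outside the list whose levels over the 8 libraries were most like the mean of the 10 were Xbp1, Relt, Efna3, Ngfr, Hk2 and Mmp15. Likeness was the root mean square difference between centred log2 CPM profiles over the 8 libraries, among 10222 genes with an average log2 CPM of at least 3. It was 0.11 for Xbp1, a factor of the unfolded protein response, and between 0.20 and 0.23 for the other 5, against a median of 0.67 over those genes. The 10 genes themselves lay between 0.15 for Ier2 and Zfp36 and 0.36 for Fosb from their own mean. Xbp1 was at 43.6 and 52.0 CPM in the KO-labelled, 71.7 and 71.8 in the Het-labelled, 22.2 and 20.7 with the WT label and 28.0 and 41.0 CPM with the SmoM2 label. It was higher in replicate 2 of the KO- and SmoM2-labelled pairs, as was the mean of the 10 genes. Xbp1 was picked for its likeness to that mean over these same libraries, so this match is not a separate result.

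Markers of other cells were read beside these results, since fewer cells of a type and less RNA per cell cannot be told apart in bulk libraries. The 9 immune markers summed to 48.9 CPM in each Het-labelled library and 28.8 and 14.4 CPM in the KO-labelled libraries. The others lay between 28.2 and 35.0 CPM, so that the sum was highest in the Het-labelled group. Cd68, a macrophage marker, was higher in Het- than in WT-labelled libraries by a log2 change of 0.84 (SE 0.20, edgeR adjusted p 0.0123). It was lower in KO- than in Het-labelled ones (-1.79, SE 0.23, edgeR adjusted p 0.00459). The other tested immune markers went the other way and were not called. Only 1 of the 5 tested was positive in Het- against WT-labelled libraries, with a median log2 change of -0.72. In KO- against Het-labelled libraries 4 of the 5 were positive, with a median of 0.67. The 8 stromal markers summed to between 184 and 685 CPM on the low-Smo side and between 344 and 680 CPM on the high-Smo side. Within them Foxd1 fell (log2 -4.34, SE 0.24, edgeR adjusted p 5.54e-07) and Meis1 rose (2.98, SE 0.13, adjusted p 1.70e-07) on the low-Smo side. Foxd1, Meis1, Cd68 and Cited1 are named here after their values were seen. The 8 markers of early nephron differentiation summed to 983 and 1192 CPM in the KO-labelled, 464 and 663 in the Het-labelled and between 332 and 498 CPM in the other libraries. The order of these sums differs from that of the 10 genes, which were highest in the Het-labelled libraries. Of the 7 early nephron markers tested, 6 were called higher on the low-Smo side, with a median log2 difference of 1.44. Against WT-labelled libraries 6 were called higher in KO-labelled and 2 in Het-labelled ones, with medians of 1.94 and 0.44. The part of differentiation was not tested. The 6 ureteric markers summed to at most 63.0 CPM, and 1 of them was without counts on the low-Smo side. All 5 erythroid markers that were tested rose on the low-Smo side, where 22.0% of all tested genes were called higher. Hba-a1 and Hba-a2 had identical counts, as did Hbb-b1 and Hbb-bs, so these 5 are 3 distinct measurements and the summed levels count such reads more than 1 time. The part of these cells in the differences was not tested. Jun, Junb, Jund and Zfp36 share exonic bases with a gene on the other strand in GENCODE vM21, and the strand setting of the counting is not given in the sources used here. For Junb that gene is Prdx2, a protein-coding gene whose log2 difference between the sides was 0.11 (SE 0.09, edgeR adjusted p 0.333).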

How the data were processed

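RNA from the sorted cells was polyA-selected and made into DNA sequencing libraries after cDNA synthesis, per the labels' protocols. The deposited table gives read counts per gene, the authors' RPKM and a gene length, per the file headers. STAR, featureCounts, Subread and mm10 are named in the submitters' processing notes, and the annotation and strand setting are not given in the sources used here. From the counts, 13459 of 24539 genes passed filterByExpr and were tested with edgeR 4.0.16 (R 4.3.3, quasi-likelihood, TMM scaling, 1 mean per group over all 8 libraries, 4 residual degrees of freedom). P-values are two-sided and Benjamini-Hochberg adjusted over all tested genes, with a threshold of 0.05. With 2 libraries against 2 an exact permutation test cannot go below 0.333, so none was run. CPM use TMM-scaled totals, and log2 CPM a prior count of 2. RPKM served for levels between genes and an alternative scaling. The fit was also run on simulated counts in which only some genes of the KO-labelled group were raised. That setting is simpler than these libraries, so it does not show how the tests behave on them. DESeq2 1.42.0, other scalings and filters, a replicate block, sex as a covariate and each library left out were alternatives. The genes and lists were chosen with earlier results of these data known. Named were Smo, the 10 genes, from each further list up to 4 called genes with the largest difference between the sides and up to 2 from each other comparison, and the 6 genes of most like pattern. Promoters are RefSeq windows, of which the 250 upstream bases were searched.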

Additional observations from a re-analysis of the deposited data

How the results depend on the processing

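Alternatives were other scalings (RPKM-implied totals, totals without TMM), other filters, DESeq2, a replicate block, sex as a covariate and each library left out. Het- against WT-labelled libraries kept 10 of 10 genes called under each of these except with a library left out (8 to 10). The pooled comparison of low with high Smo gave 10 under each, and 6 without the Het-labelled group, an alternative chosen after seeing the data. KO- against WT-labelled libraries gave between 5 and 9 with a library left out, 7 with DESeq2, 6 without the Het-labelled group and 8 to 10 under the others, against 8. KO- against Het-labelled libraries gave between 0 and 5 with a library left out, 7 with all genes of at least 1 count tested and 0 with sex as a covariate, against 2. SmoM2- against WT-labelled libraries gave 5 with all genes of at least 1 count tested, and 0 under the others. The cause of these shifts was not tested.

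Some genes changed sign, none of them called in the fit reported. With a library left out, Egr1 in KO against WT ranged from -0.01 to 0.79 and Egr2 in KO against Het from -1.10 to 0.18. In SmoM2 against WT, Jun ranged from -0.40 to 0.80, Junb from -0.14 to 0.25 (with -0.03 without WT-labelled replicate 1) and Jund from -0.13 to 0.50. With sex as a covariate Jun and Jund in KO against Het were at 0.28 and 0.21.

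The share of all tested genes called moved too. Without a KO- or WT-labelled library it was as low as 9.38% in KO against WT, and without a Het-labelled library 10.1% in Het against WT and 0.257% in KO against Het. Same-numbered replicates did not deviate together in all pairs of groups, so the numbers do not pair the libraries across all 4 groups. Correlations ran from -0.06 to 0.10, except 0.39 for the WT- with the SmoM2-labelled group. In both of these groups replicate 1 was male and replicate 2 female, so shared sex and a pairing cannot be told apart there. With the replicate block 9 genes were called in KO against WT, 10 in Het against WT, 0 in SmoM2 against WT, 3 in KO against Het and 10 in the pooled comparison.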
